A study of Mus musculus with 5 samples.

Results

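The genes described here encode the parts of the SCF and related cullin ligases. They are 79 of the 18193 genes measured on the arrays: F-box protein genes (symbols beginning Fbxo, Fbxl or Fbxw with a number), the cullin genes, and Skp1, Skp2, Rbx1 and Btrc. Members were chosen by symbol alone from the platform annotation, which lists the gene also known as Skp1a as Skp1. The pattern also took in 1 non-coding transcript, Fbxl12os. The 79 genes had 146 probe sets, and the one with the highest mean over all 5 arrays stands for its gene.

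In an SCF ligase a cullin scaffold, Cul1, holds the RING protein Rbx1 at one end and the adaptor Skp1 at the other. Skp1 in turn carries an F-box protein, which binds the protein to be ubiquitinated. F-box proteins are sorted by the part that binds the substrate: WD40 repeats (Fbxw, and Btrc), leucine-rich repeats (Fbxl, and Skp2) or other domains (Fbxo). Most of the other cullins use their own adaptors in place of Skp1. These ligases are known for timed destruction of cell cycle regulators, of signalling proteins such as beta-catenin and of misfolded glycoproteins.

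Affymetrix arrays measured RNA from E14, a line of mouse embryonic stem cells, with 2 arrays of wild-type (WT) cells and 3 of cells labelled Trip12 mut/mut. Trip12 is a HECT-type ubiquitin ligase, a class that needs no cullin. Cells of both genotypes grew over feeder fibroblasts from mouse embryos, in medium with serum replacement, fetal bovine serum and leukaemia inhibitory factor. The labels call the replicates biological. They do not describe the mutation, the number of mutant clones, whether cultures were separate or whether feeders were removed, so p-values measure the spread between these samples, which may be technical. Values are log2 RMA values, for which a step of 1 is 2-fold. The level of one probe set cannot be set against that of another.

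The array labelled Trip12 mut/mut replicate 1 did not differ from WT in the way the other 2 mutant arrays did. The brightest of 7 Trip12 probe sets read 10.17 and 10.25 on the WT arrays, with 10.18 for the array labelled replicate 1, then 12.09 and 12.57 for replicates 2 and 3. Another 3 were also higher on replicates 2 and 3 than in WT, whereas 1 was lower, at 6.11 and 6.10 in WT, 5.69 on replicate 2 and 5.24 on replicate 3, and the remaining 2 were dim. Their places relative to the mutated site are unknown here, so they do not check the amount of functional transcript. Over the 79 genes, the SD of differences was 0.102 between the WT arrays, 0.109 and 0.0904 between the array labelled replicate 1 and WT, and 0.237 to 0.306 between replicates 2 or 3 and WT. Counts of calls are therefore given over all 5 arrays as labelled, and again without that array. Where a gene's difference is given in both forms, the text says which is which. A gene's difference given without a setting leaves out the array labelled replicate 1. The second form also leaves out dim genes, keeping those above 5.52, the median of all values, on 2 or more of the 4 arrays left. Leaving an array out because of what it measured makes the 4-array p-values too small, and they cannot count as independent evidence.

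Markers of fibroblasts, the feeder cell type, were higher on replicates 2 and 3. Over 16 such genes the mean was 10.55 on both WT arrays, 10.53 for the array labelled replicate 1, then 11.02 and 11.03 for replicates 2 and 3. In the 4-array comparison 12 of 16 lay above both WT arrays on both mutant arrays and 0 below, and 5 passed the test, all higher. Of all genes in that comparison 35.2% lay above in this way and 22.1% below, and 3.30% passed as higher. The lowest single value in the list was 8.55, so no fibroblast marker was near the bottom of the scale on any array. The 10 embryonic stem cell markers averaged 11.37, 11.38 and 11.37 on the first 3 arrays and 11.22 and 11.35 on replicates 2 and 3. Of these 10, 5 lay below both WT arrays on both mutant arrays and 2 above, beside 22.1% and 35.2% of all genes. Only Utf1 fell, by 0.80 on the log2 scale, beside 1.34% of all genes called lower, while Esrrb differed by 0.57 (limma adjusted p = 0.0501). Among markers of other lineages in the 4-array comparison, Zic1 of the neuroectoderm rose by 1.23, whereas Nes and Pax6 of the same list differed by -0.53 and -0.41 and did not pass. Of 6 trophoblast markers 4 were tested, and Krt7 fell by 0.78. Eomes and Hand1 differed by -0.33 and -0.09 and Tfap2c by 0.33, and these did not pass. Of 7 primitive endoderm markers 4 were tested and 0 passed: Dab2 differed by 0.57, Gata6 by 0.23, Pdgfra by 0.02 and Sox7 by 0. Foxa2, Sox17 and Gata4 of that list were too dim to be tested and differed by -0.84, -0.26 and 0. Of 3 measured mesoderm markers only Kdr was tested, at 0.40 with overlapping groups, and it did not pass. Mixl1 and Mesp1 were too dim and differed by -0.75 and -0.15. Every increase and decrease described below was on these same arrays, and the part of the feeder cells or of other cell types in it was not tested. In such bulk samples a change in the share of a cell type and a change in RNA per cell cannot be told apart.

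The F-box and cullin genes as a group did not stand apart from other genes. Over all 5 arrays 0 of 79 passed the threshold (limma, Benjamini-Hochberg adjustment over all genes, 0.05), as did 0 of all genes (0%), and 1 of 79 had an unadjusted p below 0.05 against 1.18% of all genes. That member was the non-coding Fbxl12os, dim at 3.37 to 3.62 on the 5 arrays, with all 3 mutant arrays at the same value. The smallest adjusted p was 0.748. The median difference, mutant minus WT, was 0.03, beside 0.02 for all genes. Over all 5 arrays the groups did not overlap for 8 members, 4 higher against a background of 5.73% and 4 lower against 6.29%.

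In the 4-array comparison 63 of the 79 genes were bright enough to be tested. Of these, 3 rose and 0 fell: Fbxo2, Fbxo32 and Fbxo6. The background was 3.30% of 11623 genes higher and 1.34% lower, so the members' share of 4.76% called in either direction lay near the 4.64% of all genes. Both mutant arrays lay above both WT arrays for 22 of 63, or 34.9%, beside 35.2% of all genes, and below them for 11 of 63, or 17.5%, beside 22.1%. The median difference was 0.08, beside 0.05 for all genes, and the median size regardless of sign was 0.16, beside 0.19. No member differed by 2-fold or more, which 1.31% of all genes did. Without the array labelled replicate 1 and with dim genes kept, 0 of 79 passed (smallest adjusted p = 0.0785), with 12 below an unadjusted 0.05, beside 20.5% of all genes. In the 4-array comparison 11 of 63 members, or 17.5%, had an unadjusted p below 0.05, beside 28.8% of all genes.

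**Figure D1:**
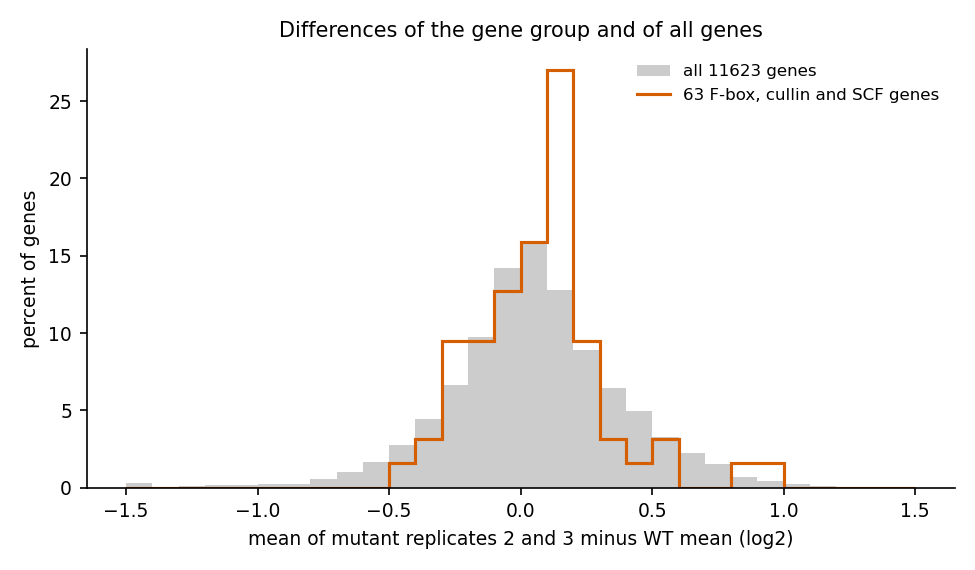
Share of genes (percent, vertical axis) by difference between the mean of Trip12 mut/mut replicates 2 and 3 and the WT mean (log2, horizontal axis, bins of 0.1, with values beyond 1.5 counted in the outermost bins). Grey bars are all 11623 genes of the 4-array comparison and the orange line is the 63 F-box, cullin and SCF genes, which lie between -0.43 and 0.97.

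The largest difference in the group was that of Fbxo2. Fbxo2 encodes an F-box protein that binds high-mannose glycans on misfolded glycoproteins and is best known from neurons. It read 7.14 and 7.28 on the WT arrays, with 7.23 for the array labelled replicate 1, then 8.11 and 8.25 for replicates 2 and 3. Replicates 2 and 3 were both well above WT, while the array labelled replicate 1 lay between the WT values. Without that array Fbxo2 rose by 0.97 (SE 0.09, limma adjusted p = 0.0421), or 1.96-fold. As labelled, over all 5 arrays, the difference was 0.65 (SE 0.35, adjusted p = 0.748). Over 13 other settings its difference stayed between 0.46 and 0.97 and its adjusted p between 0.0785 and 0.987. Fbxo2 has only 1 probe set, so the difference was not checked on another.

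Fbxo6 encodes the closest relative of Fbxo2 and also acts on glycoproteins exported from the endoplasmic reticulum for degradation. Its values were 8.65 and 8.72 in WT, with 8.64 for the array labelled replicate 1, then 9.32 and 9.20 for replicates 2 and 3. Again only replicates 2 and 3 stood above WT. The 4-array difference was 0.57 (SE 0.08, adjusted p = 0.0497), or 1.49-fold, close to the threshold, and over all 5 arrays it was 0.37 (SE 0.23, adjusted p = 0.748). Over the 13 other settings the adjusted p ranged from 0.0834 to 0.987. The other probe set of Fbxo6 was dim, at 3.92 to 4.49 on the 5 arrays.

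Fbxo2 and Fbxo6 belong to a family of 5 genes that share the F-box-associated (FBA) domain, with Fbxo17, Fbxo27 and Fbxo44. This grouping was made after the values were seen, and no test of it was made. Fbxo27, a receptor for glycoproteins of damaged lysosomes, read 6.10 and 6.04 in WT, with 6.10 on the array labelled replicate 1, and 6.31 on both replicates 2 and 3. Fbxo17 read 6.85 and 6.88 in WT, with 6.88 for the array labelled replicate 1, then 7.07 and 6.94 for replicates 2 and 3. Fbxo44 was too dim to be tested without that array, and read 5.45 and 5.30 in WT, with 5.48 for the array labelled replicate 1, then 5.91 and 5.51 for replicates 2 and 3. All 5 genes therefore lay above both WT arrays on replicates 2 and 3, for Fbxo44 and Fbxo17 by less than 0.1 over the higher WT array on replicate 3. Of all genes in the 4-array comparison 35.2% did so, and Fbxo2 and Fbxo6 had already been called higher when the family was chosen. The differences of Fbxo27 and Fbxo17, 0.24 (limma adjusted p = 0.12) and 0.14 (0.345), did not pass. Over all 5 arrays Fbxo27, Fbxo17 and Fbxo44 differed by 0.17, 0.10 and 0.26 (adjusted p = 0.748 for each).

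**Figure D2:**
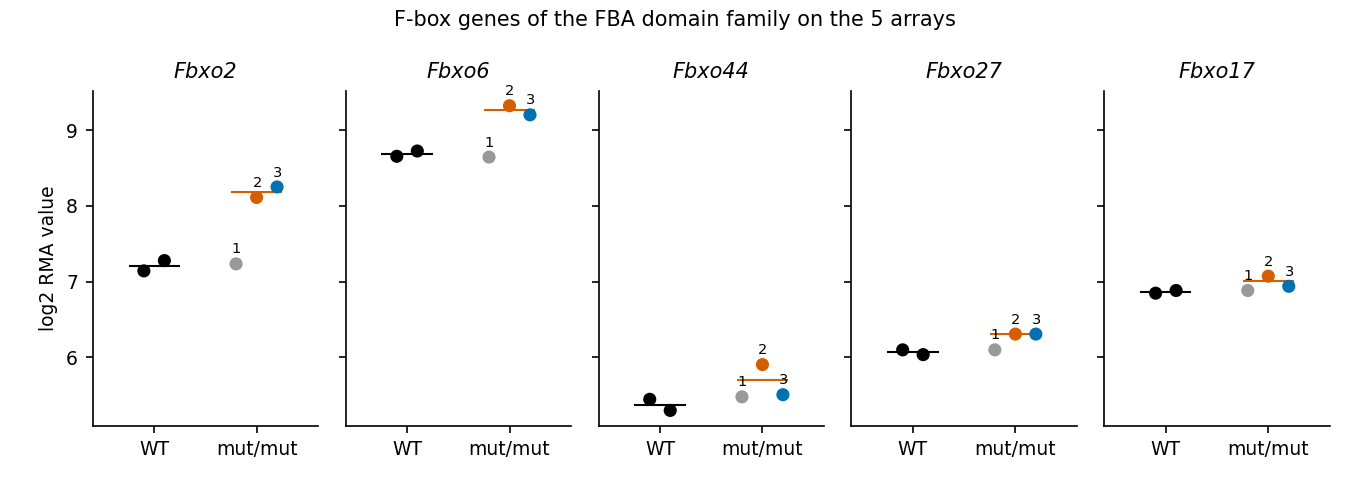
Log2 RMA value (vertical axis) of the 5 FBA domain genes in WT (2 black points) and Trip12 mut/mut cells (3 points numbered by replicate). Bars mark the mean of the WT arrays and of mutant replicates 2 and 3. Replicates 2 and 3 lie above WT for each gene, by 0.97 on average for Fbxo2 and 0.14 for Fbxo17, and the point numbered 1 lies at or near the WT values.

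Fbxo6, Fbxo44 and Fbxo2 lie next to each other on chromosome 4, and Fbxo27 and Fbxo17 next to each other on chromosome 7, in the order of protein-coding genes of the RefSeq table. Among flanking genes, Mad2l2, beside Fbxo6, differed by -0.24 and Mrps12, beside Fbxo17, by -0.17. Acp7, beside Fbxo27, differed by 0.10, at 5.51 and 5.45 in WT and 5.62 and 5.54 on replicates 2 and 3. It passed the filter on dim genes only through these mutant arrays, so their place above WT was fixed by the filter. Disp3, beside Fbxo2, was too dim to be tested and differed by -0.11, with replicates 2 and 3 within the WT range. Fbxo44 and Fbxo2 point away from each other, and their starts are 574 bases apart. The 250 bases before the start of the 3 neighbouring genes of chromosome 4 are printed for that reason, from RefSeq (GRCm38.p6), each 5′ to 3′ on the strand of its gene and from the gene's most upstream start. Capitals mark the letters GGGCGG or their reverse complement CCGCCC, a GC box, which was chosen after the sequences were seen.
Fbxo2, chr4:148160418-148160667, plus strand: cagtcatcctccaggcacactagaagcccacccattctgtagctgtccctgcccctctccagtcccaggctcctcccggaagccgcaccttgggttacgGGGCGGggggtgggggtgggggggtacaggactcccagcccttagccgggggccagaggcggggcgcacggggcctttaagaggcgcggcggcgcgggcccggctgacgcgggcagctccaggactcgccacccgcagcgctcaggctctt
Fbxo44, chr4:148160095-148160344, minus strand: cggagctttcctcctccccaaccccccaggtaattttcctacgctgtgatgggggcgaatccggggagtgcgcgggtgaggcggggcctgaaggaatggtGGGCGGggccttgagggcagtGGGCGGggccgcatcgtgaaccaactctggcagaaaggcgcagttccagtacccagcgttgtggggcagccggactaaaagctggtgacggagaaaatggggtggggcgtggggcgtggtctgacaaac
Fbxo6, chr4:148152136-148152385, minus strand: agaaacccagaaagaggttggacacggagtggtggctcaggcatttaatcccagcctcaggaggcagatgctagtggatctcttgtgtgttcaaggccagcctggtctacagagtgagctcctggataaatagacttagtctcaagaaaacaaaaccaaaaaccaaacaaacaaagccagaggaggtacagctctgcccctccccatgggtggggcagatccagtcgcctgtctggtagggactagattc
The stretch before Fbxo2 was 71.6% G and C with 1 GC box, that before Fbxo44 64.4% with 2, and that before Fbxo6 51.2% with none. None of the 3 held any of the 6 motifs searched for all genes: TTCCCGC or TTGGCGC (E2F sites), TTTGAA (the cell cycle element CHR), CACGTG (E-box), TGTTTAC (forkhead) or TGAGTCA (AP-1), each on both strands. In windows from 250 bases before to 50 after a start, GGGCGG was present for 39 of the 59 members in the table, or 66.1%, beside 38.2% of all 27025 genes. These 27025 include genes beyond the 18193 measured, so the 2 shares are not of like sets. Members with both mutant arrays above WT had it in 68.4% and those with both below in 72.7%, so it did not follow direction.

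Fbxo32 was the third gene that rose. It encodes atrogin-1, the muscle ligase that is induced during muscle wasting. Its values were 6.99 and 7.13 in WT, with 7.11 for the array labelled replicate 1, then 7.87 and 7.88 for replicates 2 and 3, which agree closely and stand clear of WT. The 4-array difference was 0.81 (SE 0.08, limma adjusted p = 0.0421), or 1.76-fold, against 0.56 (SE 0.28, adjusted p = 0.748) over all 5 arrays. Over the 13 other settings its adjusted p ranged from 0.0785 to 0.987. The other 2 probe sets of Fbxo32 differed by 0.23 and 0.56, and the first of these was above WT on replicate 3 (7.40, beside 6.90 and 6.86 in WT) but not on replicate 2 (6.84).

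Trim63, which encodes the other well-known ligase of muscle wasting and uses no cullin, read 6.03 and 5.92 in WT, with 6.00 for the array labelled replicate 1, then 7.18 and 6.85 for replicates 2 and 3. It rose by 1.04 (adjusted p = 0.0479) in the 4-array comparison, over all 5 arrays its adjusted p was 0.748, and over the 13 other settings it was between 0.0885 and 0.987. Trim63 is 1 of 5 skeletal muscle markers listed. Of the others, Acta1, skeletal muscle actin, read 8.56 and 8.65 in WT and 8.79 and 8.81 on replicates 2 and 3 (adjusted p = 0.186), Ckm, muscle creatine kinase, differed by 0.11 with overlapping groups, and the muscle regulators Myod1 and Myog were dim on all 5 arrays, at 3.69 to 4.24. The part of muscle-like cells in the increase of Fbxo32 and Trim63 was not tested.

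Among F-box genes of the cell cycle the values went both ways and none passed. Skp2, which targets the cyclin-dependent kinase inhibitor p27, read 9.77 and 9.70 in WT, with 9.70 for the array labelled replicate 1, then 9.58 and 9.29 for replicates 2 and 3. Its 4-array difference was -0.30 (SE 0.12, limma adjusted p = 0.218), and over all 5 arrays it was -0.21 (0.748). Skp2 has 6 bright probe sets, and all 6 had a negative difference, from -0.56 to -0.14, with both mutant arrays below both WT arrays in 5. These probe sets measure one transcript pool and are not replicates.

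Fbxo5 encodes Emi1, the inhibitor of the anaphase-promoting complex. It had the largest negative difference of the group: 10.16 and 10.26 in WT, with 10.18 for the array labelled replicate 1, then 9.61 and 9.95 for replicates 2 and 3. Both mutant arrays lay below WT, replicate 2 by the wider margin, and the difference of -0.43 (SE 0.14, limma adjusted p = 0.149) did not pass. Over all 5 arrays it was -0.30 (adjusted p = 0.748). Fbxo31, which acts on cyclin D1, differed by -0.14 (adjusted p = 0.396). Fbxo4, for which cyclin D1 is also a known target, went the other way: 6.93 and 6.84 in WT, with 6.93 for the array labelled replicate 1, then 7.60 and 7.26 for replicates 2 and 3. That difference of 0.54 (SE 0.14, adjusted p = 0.102) did not pass either, and as labelled it was 0.38 (0.748).

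The paralogues Btrc and Fbxw11 recognise phosphorylated beta-catenin. At the probe sets that represent them, both read highest on replicate 2. Btrc was at 5.63 on both WT arrays and replicate 3, 5.37 on the array labelled replicate 1 and 5.96 on replicate 2. Its other bright probe set went the other way, at 5.58 and 5.64 in WT and 5.39 and 5.42 on replicates 2 and 3. Fbxw11 was at 12.40 on both WT arrays, 12.38 on the array labelled replicate 1, 12.76 on replicate 2 and 12.41 on replicate 3. Of its 3 other bright probe sets, 1 had a difference of opposite sign. Without replicate 2 the differences of Btrc and Fbxw11 at the representing probe sets were below 0. That came from the array labelled replicate 1, as replicate 3 was at or just above the WT values. Fbxw7, the receptor for cyclin E, Myc and Notch, read 9.21 and 9.22 in WT, with 9.18 on the array labelled replicate 1, 8.99 on replicate 2 and 9.60 on replicate 3. The mutant arrays lay on opposite sides of WT there, but a second Fbxw7 probe set read 8.999 and 9.02 in WT and 9.55 and 9.45 on replicates 2 and 3, both higher.

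The letters TTTGAA, the CHR element found in promoters of many G2 and M phase genes, were present in windows of 5 of the 11 members whose mutant arrays both lay below WT: Fbxl14, Fbxl19, Fbxo5, Skp1 and Skp2. Over all 59 members with windows they were present in 9, or 15.3%, below the 20.2% of all genes with windows, measured or not. The 5 of 11 are 45.5% of a subset split by the change itself, beside 10.5% of the 19 genes with windows whose arrays lay above WT. A match shows only that the letters are there. Skp2 is printed because its stretch holds them more than once, in capitals, 63 and 55 bases before its most upstream start.
Skp2, chr15:9155426-9155675, minus strand: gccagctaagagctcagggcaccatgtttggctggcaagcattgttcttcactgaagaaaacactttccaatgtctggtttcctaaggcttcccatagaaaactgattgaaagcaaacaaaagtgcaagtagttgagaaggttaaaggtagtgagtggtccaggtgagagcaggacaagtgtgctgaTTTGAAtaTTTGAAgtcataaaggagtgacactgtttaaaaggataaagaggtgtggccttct
These bases are 42.8% G and C. The second window of Skp2 did not hold TTTGAA.

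The 8 cullin genes were all bright enough to be tested, and 0 passed in either comparison. Their differences without the array labelled replicate 1 lay between -0.32 and 0.16. Cul4b, the X-linked scaffold of DDB1-based ligases, was the only one with both mutant arrays below both WT arrays: 11.59 and 11.56 in WT, with 11.56 for the array labelled replicate 1, then 11.10 and 11.41 for replicates 2 and 3. Its difference of -0.32 (SE 0.13, limma adjusted p = 0.209) did not pass, and as labelled it was -0.22 (0.748). Its second probe set was 0.17 higher. Cul4a, its paralogue, read 8.49 and 8.23 in WT, with 8.39 for the array labelled replicate 1, then 8.57 and 8.47 for replicates 2 and 3, so that replicate 3 and the array labelled replicate 1 lay within the WT range.

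Cul1, the SCF scaffold itself, read 10.29 and 10.28 in WT and 10.28 on the array labelled replicate 1. It read 10.34 on replicate 2 and 10.12 on replicate 3, a 4-array difference of -0.05 (limma adjusted p = 0.751). Cul3, which carries BTB-domain adaptors, differed by 0.10, with its 4 other probe sets between -0.34 and 0.27. Cul2 and Cul5, which use elongin adaptors, differed by -0.12 and 0.06, Cul7, the partner of Fbxw8, by 0.11, and Cul9 by -0.05. For Cul5 and Cul7 replicate 3 had the WT value (8.44 and 9.64), and for Cul9 the lowest array was the one labelled replicate 1, at 5.63 beside 5.99 and 5.88 in WT.

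Skp1, the adaptor, read 13.00 and 12.98 in WT, with 13.02 for the array labelled replicate 1, then 12.76 and 12.90 for replicates 2 and 3. The mutant arrays were lower by a small margin, and the difference of -0.16 (limma adjusted p = 0.3) did not pass; as labelled it was -0.10 (0.75). The second Skp1 probe set differed by -0.16 as well. Rbx1, the RING subunit, differed by -0.23 (adjusted p = 0.193; as labelled, -0.16 and 0.748) at a probe set that read 6.80 and 6.74 in WT, with 6.74 for the array labelled replicate 1, then 6.47 and 6.62 for replicates 2 and 3. The 5 probe sets annotated to both Rbx1 and its pseudogene Rbx1-ps name no single gene; the brightest of them read 12.17 on both WT arrays and 12.28 and 12.07 on replicates 2 and 3, on opposite sides of WT. Another of them, nearly as bright, read 11.93 and 11.95 in WT and 11.21 and 11.79 on replicates 2 and 3, both lower.

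**Figure D3:**
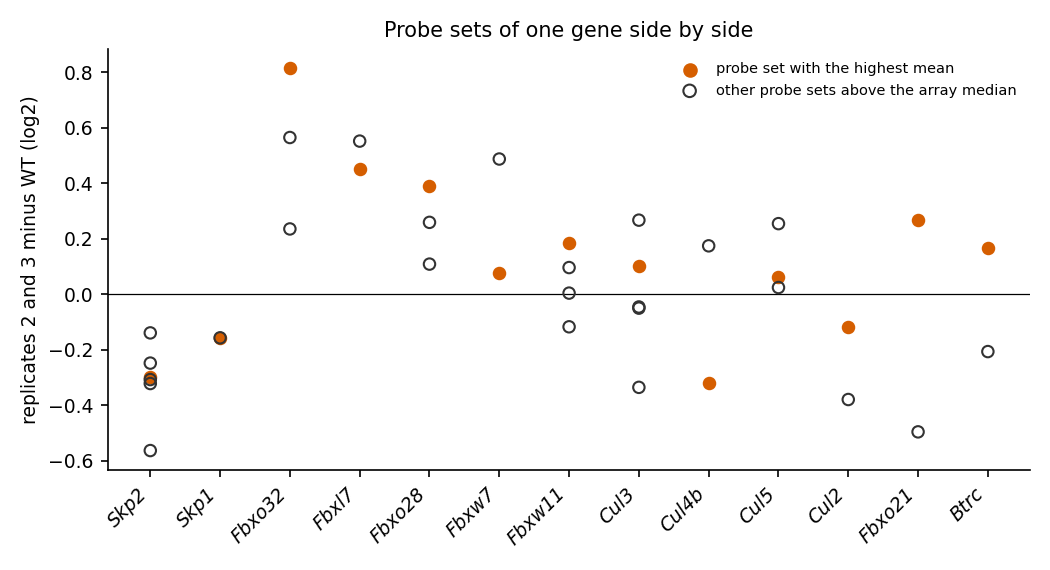
Mean of Trip12 mut/mut replicates 2 and 3 minus the WT mean (log2, vertical axis) for each bright probe set of 13 genes. Filled points are the probe sets that represent the gene and open points the others; all 6 of Skp2 lie below 0, whereas those of Fbxo21 and Cul4b lie on both sides of 0.

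Of the leucine-rich repeat genes, Fbxl7, an F-box protein with Aurora A among its known targets, came nearest to the threshold. It read 6.35 and 6.29 in WT, with 6.33 for the array labelled replicate 1, then 6.82 and 6.72 for replicates 2 and 3, a difference of 0.45 (SE 0.08, limma adjusted p = 0.0583), against 0.31 (0.748) as labelled. Its other bright probe set differed by 0.55. Fbxl19, which binds CpG islands through a CXXC domain, read 8.94 and 8.88 in WT, with 8.98 for the array labelled replicate 1, then 8.62 and 8.47 for replicates 2 and 3, a difference of -0.37 (adjusted p = 0.0883), against -0.22 (0.748) as labelled. Fbxl14, which acts on Snail proteins, differed by -0.26 (adjusted p = 0.199), and by -0.18 (0.748) as labelled.

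Other Fbxo genes with both mutant arrays on one side of WT included Fbxo28, at 9.18 and 9.11 in WT, with 9.13 for the array labelled replicate 1, then 9.69 and 9.37 for replicates 2 and 3 (difference 0.39, limma adjusted p = 0.164; as labelled, 0.26 and 0.748). Fbxo25 differed by 0.31, Fbxo21 by 0.27, Fbxo10 by 0.25 and Fbxo33 by 0.24, and Fbxo46 by -0.29 and Fbxo7, an F-box protein of mitophagy, by -0.20; none passed (adjusted p = 0.161 to 0.348). As labelled, the differences of Fbxo25 and Fbxo21 were 0.19 and 0.14, smaller by more than 1.5 times. Fbxo21 had a second bright probe set that differed by -0.50, the opposite sign. Of the 26 tested members with another bright probe set, 12 had one of opposite sign.

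Fbxo15, a gene bound by Oct3/4 and Sox2 and long used as a reporter of the embryonic stem cell state, read 11.28 and 11.27 in WT, with 11.28 on the array labelled replicate 1, 11.04 on replicate 2 and 11.61 on replicate 3. The mutant arrays differed in opposite directions, and the mean difference of 0.05 had an SE of 0.21. In all, replicates 2 and 3 lay on opposite sides of both WT arrays for 10 of 63 members, or 15.9%, beside 16.9% of all genes. Besides Fbxo15 these were Cul1, Cul3, Fbxl6, Fbxl8, Fbxo9, Fbxo11, Fbxo42, Fbxw7 and Fbxw8, named after their values were seen. The array labelled replicate 1 was within 0.2 of the WT mean for 61 of 63 members, replicate 3 for 41 and replicate 2 for 26.

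**Figure D4:**
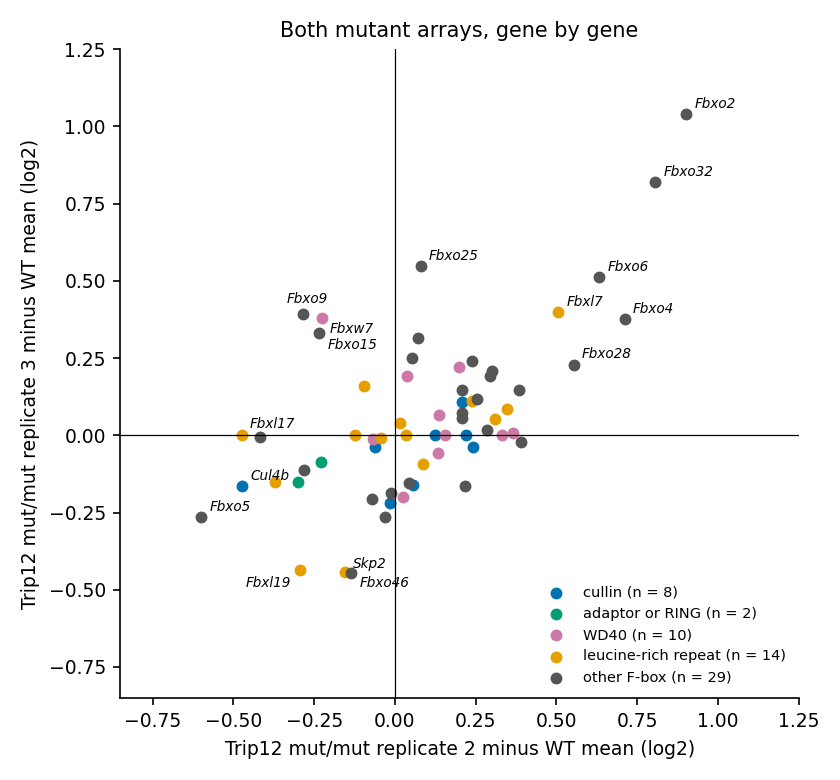
Difference from the WT mean (log2) on Trip12 mut/mut replicate 2 (horizontal axis) and replicate 3 (vertical axis) for the 63 tested members, coloured by class. Fbxo2, Fbxo32 and Fbxo6 lie high on both arrays, Fbxo5 and Fbxl19 low on both, and Fbxo15, Fbxo9 and Fbxw7 lie below 0 on replicate 2 and above 0 on replicate 3.

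Without the array labelled replicate 1 the class medians were 0.15 for the 29 tested other Fbxo genes, 0.09 for 10 WD40 genes, 0.01 for 14 leucine-rich repeat genes and 0.01 for 8 cullins, and -0.19 for the adaptor Skp1 and the RING subunit Rbx1, beside 0.05 for all genes. The 16 members that were too dim included 8 of the 9 Fbxw genes on chromosome 9, a rodent cluster known from the oocyte, with values from 2.45 to 5.42. Fbxo43, the meiotic relative of Fbxo5, was also dim, at 3.09 on the array labelled replicate 1 as on both WT arrays, 3.40 on replicate 2 and 3.07 on replicate 3.

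**Figure D5:**
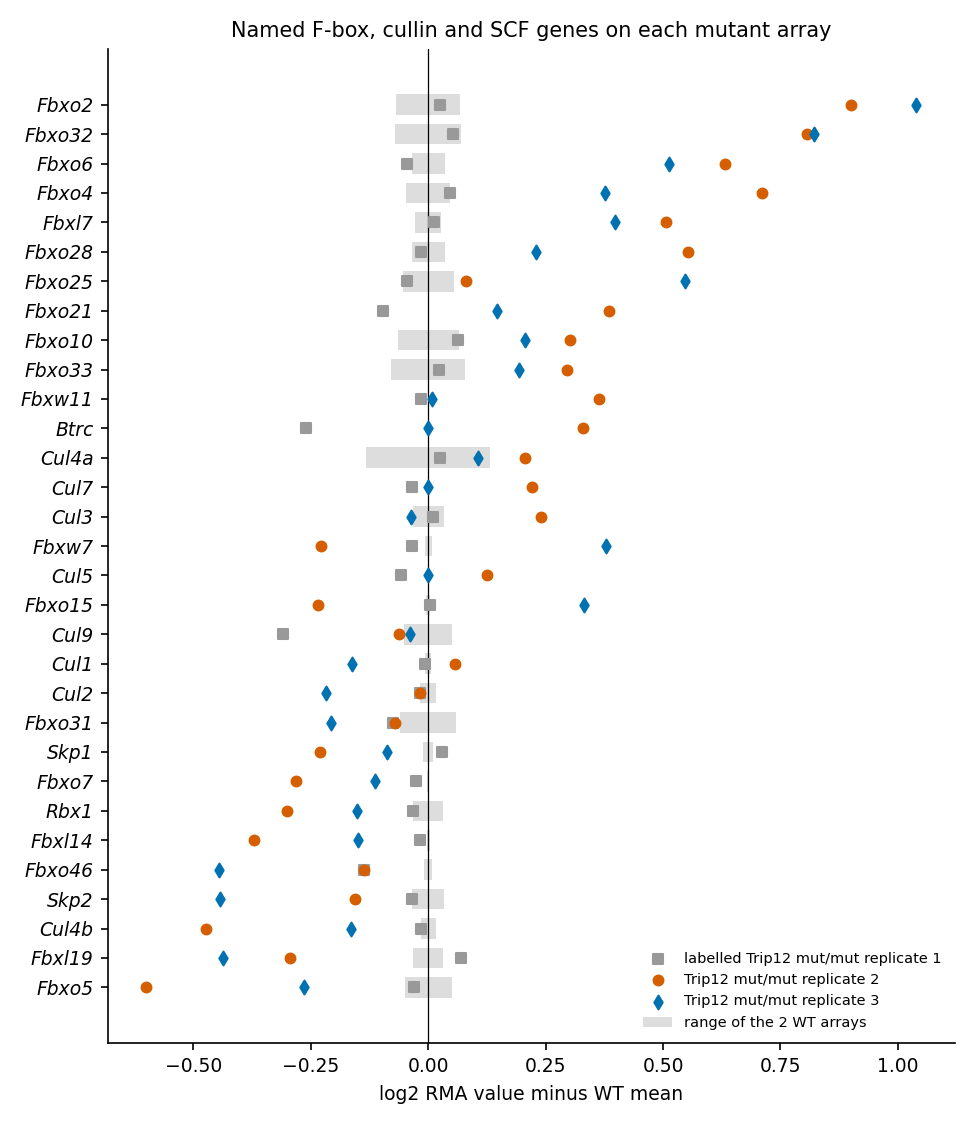
Log2 RMA value on each Trip12 mut/mut array minus the WT mean (horizontal axis) for the 31 members named by a rule; grey bars span the 2 WT arrays. Squares, the array labelled replicate 1, lie within 0.1 of WT except for Btrc, Cul9 and Fbxo46, whereas circles (replicate 2) and diamonds (replicate 3) spread from -0.60 to 1.04.

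Lists of genes that work with cullins were counted in the same way. Of the 21 measured genes of NEDD8 attachment, cullin exchange and ubiquitin transfer, 0 passed in either comparison (median -0.02 without the array labelled replicate 1), and nor did any of the 9 subunits of the COP9 signalosome, which removes NEDD8 from cullins (median -0.07), or of the 19 genes of the anaphase-promoting complex (median -0.06). Of 49 adaptors of other cullins 47 were tested and 0 passed (median 0.11). F-box genes under other symbols, such as Ccnf and Kdm2b, had 0 of 5 past the threshold (median -0.17). The like share of all genes was 539 of 11623, or 4.64%, in limma, and 28.8% had an unadjusted p below 0.05. Over all 5 arrays the medians of these lists were -0.02, -0.05, -0.06, 0.07 and -0.10 in the same order.

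Among 33 measured genes of known SCF substrates 32 were tested, with a median of 0.04. Beside the 3.30% of all genes that rose and 1.34% that fell, 0 rose and 1 fell. That gene was Mycn, a substrate of Fbxw7, which read 11.42 and 11.40 in WT, with 11.40 for the array labelled replicate 1, then 10.75 and 10.57 for replicates 2 and 3. It fell by 0.75 on the log2 scale (SE 0.09, limma adjusted p = 0.0467) in the 4-array comparison; over all 5 arrays its adjusted p was 0.748, and over 13 other settings 0.0831 to 0.987. SCF ligases act on proteins, which these arrays do not measure.

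The 5 genes whose pattern over the 5 arrays was most like that of Fbxo2, among 1865 genes with an SD of at least 0.3, were 4932441J04Rik, Lix1l, Fgf7, Igf1 and Plekhg1, with Pearson correlations between 0.9985 and 0.9998. The first of these, 4932441J04Rik, was dim, at 3.99 to 5.08 on the 5 arrays, below the cut of 5.52. With 5 arrays, 67 genes had a correlation above 0.99. Fgf7, a growth factor of mesenchymal cells, read 9.996 and 10.06 in WT, with 10.06 for the array labelled replicate 1, then 10.61 and 10.65 for replicates 2 and 3. Igf1 read 7.09 and 7.16, 7.18, and 7.73 and 7.83 in the same order. These correlations describe 5 arrays of which 2 stand apart from the other 3.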

How the data were processed

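The deposited values are log2 values, 1 per probe set and array, made by the authors with RMA, per the submitters' processing notes (no version named). Array medians lay between 5.51 and 5.55. The file held 45101 probe sets, of which 64 controls were left out. The platform annotation gave 34945 of the rest 1 gene symbol, 932 several and 9160 none, and symbols were updated by gene number through a RefSeq table of GRCm38.p6 for 34741. Those with several symbols were assigned to no gene. For each gene the brightest probe set on average was kept.

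limma 3.58.1 (R 4.3.3) fitted a single genotype term to all 18193 genes by lmFit, followed by eBayes with two-sided tests, with Benjamini-Hochberg adjustment over all genes tested and a threshold of 0.05. Differences are Trip12 mut/mut minus WT. The 4-array comparison used 11623 genes. Exactly equal values on 2 or more arrays occurred in 49 of 79 members over 5 arrays, and in 21 of the 63 tested members over 4, so that groups can fail to overlap by a very small margin. Array number limits the precision of every value.

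Members, gene lists, tests and the rule for named genes were chosen with earlier results of these data known. The rule named all cullins, Skp1, Skp2, Rbx1, Btrc and 6 genes of known role, members past the threshold, and up to 10 members with the largest non-overlapping differences in each direction in the 4-array comparison. The procedure was tested on simulated data. Over 18193 genes with the spread of 5 arrays 84 of 100 genes with a log2 change of 2 and 53 of 100 with a change of 1 were found, beside 8 false calls. Over 11623 genes with the spread of 4 arrays these were 88 and 54 of 100, beside 0 false calls. The simulated noise was independent between genes, and each change was set on every mutant array. Leaving out an array because of its values was not simulated, so these counts do not measure false calls in the 4-array comparison. Alternatives were quantile normalisation, centring of array medians, the filter on dim genes, array weights, other choices of probe set, leaving out each array, a block for the replicate number, and eBayes with a trend and robust variances. Promoter windows were matched by symbol for 59 of 79 members. Plots used Python 3.11.15 and matplotlib 3.10.9.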

Additional observations from a re-analysis of the deposited data

How the results depend on the processing

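The count of members past the threshold was 0 over all 5 arrays and under each alternative except the 4-array comparison without dim genes, where it was 3, with 539 of all genes. Alternatives to that comparison added after the data were seen gave 3 members each, with 997 genes under quantile normalisation and 744 with a trend and robust estimation; Fbxo2, Fbxo32 and Fbxo6 passed in each. With each array left out in turn and dim genes kept, both counts were 0. Of 496 values of the 31 named members under 16 alternatives, 19 reversed direction and 20 members never reversed. Cul5 reversed under quantile normalisation (-0.0049). With 1 array left out in turn, Cul4a ranged from -0.0193 (without WT replicate 2) to 0.2446. Without mutant replicate 2 the lowest values of Btrc (-0.1303 to 0.1652), Cul3 (-0.0137 to 0.1251), Cul5 (-0.0288 to 0.0622), Cul7 (-0.017 to 0.1105) and Fbxw11 (-0.0043 to 0.1857) were reached. Without mutant replicate 3, Cul1 (-0.0843 to 0.0252), Fbxo15 (-0.1157 to 0.1681) and Fbxw7 (-0.1312 to 0.172) reversed. With the mean of probe sets Btrc (-0.0116), Cul3 (-0.0029), Fbxo21 (-0.1095) and Fbxw11 (-0.001) reversed, and with the probe set of largest SD Cul9 (0.0464) and Fbxo21 (-0.3638). The cause was not tested.

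The replicate numbers are not shown to pair the arrays. Across 11651 genes the deviations of same-numbered arrays from their group means correlated at -0.06 and -0.14. With 2 WT arrays the deviations of one are those of the other with the sign reversed. The mutant mean also includes the array labelled replicate 1, so with only 2 shared numbers these values can neither show nor exclude pairing. With the replicate number as a block, which uses replicates 1 and 2 alone, 0 members and 0 of all genes passed, Cul1 (0.0252), Fbxo15 (-0.1157) and Fbxw7 (-0.1312) reversed, and medians moved to 0.0082 for the NEDD8 list, 0.0071 for the anaphase-promoting complex, 0.0441 for F-box genes under other symbols and -0.0187 for SCF substrates. With 1 array left out in turn, these medians lay within -0.0347 to 0.0082, -0.0619 to 0.0071, -0.1667 to 0.0441 and -0.0187 to 0.0521. The median of F-box genes under other symbols was -0.1667 in the 4-array comparison, with a trend or without, and -0.1842 there with quantile normalisation, where the NEDD8 list was at -0.0416 and the anaphase-promoting complex at -0.1042. With the mean of probe sets the anaphase-promoting complex was at -0.0284, and with the probe set of largest SD the NEDD8 list was at -0.0704 and the SCF substrates at 0.0869. Choosing members by current symbols gave the same 79 genes.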
